A study of Drosophila melanogaster with 3 samples.

Results

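The fourth chromosome of Drosophila melanogaster, the dot chromosome, held 257 of the 30000 peaks in the authors' pooled list of Mabi-GFP binding in early embryos. The members were every pooled peak whose chromosome field named chromosome 4, whatever its signal or confidence, and lay in 256 distinct intervals. Of these, 38 were also in the authors' optimal list by irreproducible discovery rate (IDR, a measure of how well ranks agree between replicates), which held the strongest 16.8% of the pool. The remaining pooled peaks lay almost all on the 5 large chromosome arms (29742 peaks), which served as the comparison. The −log10 q-values of the members, a measure of confidence, ran from 0.794 to 4.16. The weaker members are thus not established binding sites. Peak intervals were distinct when start or end differed, and many overlapped. At Taf3 and Hcf, for example, neighbouring peak intervals matched the same replicate peaks. Such neighbours count as separate members in the shares and Wilson intervals below.

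Mabi (CG15479, mabiki) has been linked to embryonic cell death. Its binding was measured with ChIP-seq on mixed-sex whole embryos collected at 0 to 4 h. According to the labels, the transgenic line stably carried Mabi fused at its C-terminus to green fluorescent protein (GFP), the source was described as an insertion that targets Mabi, and the precipitation used anti-GFP, while the antibody field names CG15479. There was 1 group of 3 biological replicates, with no second genotype, treatment or age. All 3 replicates shared 1 control file, chromatin was sonicated to 200 to 800 bp, and every value is a mean over all cells and stages in that window.

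Chromosome 4 is the smallest chromosome of the fly and is packaged largely as heterochromatin, rich in transposable elements and bound by heterochromatin protein 1. Its genes are nonetheless transcribed, and the protein POF binds them across the chromosome. It carries several developmental regulators, among them cubitus interruptus (ci), the transcription factor at the end of Hedgehog signalling, eyeless (ey), a Pax6 gene of eye development, and pangolin (pan), the TCF factor at the end of Wnt signalling. The annotation placed 80 protein-coding genes there, or 59.3 per Mb, against 104.6 per Mb on the large arms.

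The sequences under the 3 strongest chromosome 4 intervals are shown first because these sites lead the ranking by signal, and the fourth is shown because it is the only IDR summit of the chromosome with the Zelda heptamer CAGGTAG. Each is the 201-base window centred on the summit, plus strand, from the RefSeq copy of genome Release 6 (dm6). Capitals mark matches to any of 6 motifs searched on either strand. The windows are chr4:59068-59268 upstream of ci, chr4:497816-498016 upstream of zfh2, chr4:851253-851453 upstream of fd102C and chr4:70251-70451 at a pan promoter.
ci peak: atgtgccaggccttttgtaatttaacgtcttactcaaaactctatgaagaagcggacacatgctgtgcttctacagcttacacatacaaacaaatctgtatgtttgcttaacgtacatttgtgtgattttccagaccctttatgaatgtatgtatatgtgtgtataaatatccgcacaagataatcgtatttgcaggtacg
zfh2 peak: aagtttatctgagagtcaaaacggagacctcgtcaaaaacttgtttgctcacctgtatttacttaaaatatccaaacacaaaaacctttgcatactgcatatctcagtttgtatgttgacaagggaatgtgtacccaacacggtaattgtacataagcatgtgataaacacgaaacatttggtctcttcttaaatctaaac
fd102C peak: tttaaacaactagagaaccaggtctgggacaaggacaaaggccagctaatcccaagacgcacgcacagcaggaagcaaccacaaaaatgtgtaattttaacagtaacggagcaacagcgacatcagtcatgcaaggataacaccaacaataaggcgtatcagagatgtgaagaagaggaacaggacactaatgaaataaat
pan peak: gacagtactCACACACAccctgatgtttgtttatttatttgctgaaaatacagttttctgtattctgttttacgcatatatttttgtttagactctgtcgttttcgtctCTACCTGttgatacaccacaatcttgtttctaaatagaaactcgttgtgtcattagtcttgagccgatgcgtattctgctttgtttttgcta
The first 3 windows held none of the 6 motifs and are therefore all in lower case. The pan window held the Zelda heptamer on the reverse strand, read here as CTACCTG, and a CACACACA repeat. The GC content of the 4 windows was 36.8%, 35.3%, 42.8% and 35.3%.

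The 4 strongest chromosome 4 sites all lay upstream of transcription factor genes and outside promoters, where a promoter is within 500 bp of a protein-coding transcription start site (TSS). Signal is the deposited signal value of a peak, whose scale is not stated, so replicate values are given as multiples of the median of that replicate's own list. The strongest site, 2127 bp upstream of ci and inside the antisense gene asRNA:CR43957, had a pooled signal of 1143 and ranked 487 of 30000. It reached 6.46, 6.35 and 9.61 times the list median in replicates 1, 2 and 3. All 3 values were thus far above the median, with replicate 3 the highest.

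The second, 3894 bp upstream of zfh2, a zinc-finger homeodomain factor of limb and nervous system development, had a pooled signal of 1036. Its replicate values were 5.71, 6.23 and 8.53 times the list median. The third lay 6824 bp upstream of fd102C, a forkhead-domain factor gene, in lncRNA:CR45123, with a signal of 945 and values of 6.76, 6.38 and 5.88. Here the order of the replicates was turned, with replicate 3 the lowest. The fourth, in intergenic sequence 10920 bp upstream of dati, a zinc-finger gene active in neurons, had a signal of 751 and values of 6.36, 4.15 and 5.07.

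**Figure D1:**
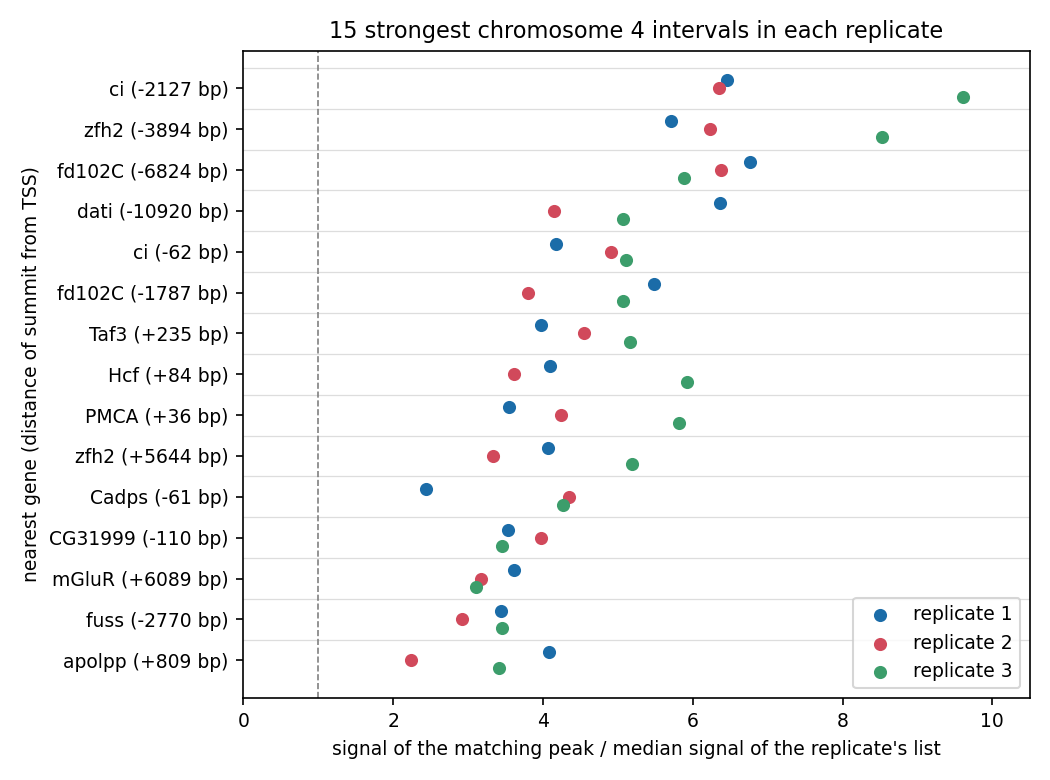
The 15 chromosome 4 intervals with the highest pooled signal, named by nearest protein-coding gene and signed distance of the summit from its TSS (negative is upstream). Points are the 3 replicates, as signal of the overlapping peak divided by the median signal of that replicate's list (dashed line at 1); all points lie above the line, from 2.23 at apolpp in replicate 2 to 9.61 at ci in replicate 3.

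Promoter sites came next. The ci promoter held 2 summits in 1 interval, of which the stronger lay 62 bp upstream of a TSS with a signal of 718 and replicate values of 4.18, 4.90 and 5.11. A summit 235 bp inside Taf3, which encodes a subunit of the general transcription factor TFIID, had a signal of 706 and values of 3.98, 4.55 and 5.17. At Hcf, the gene of a chromatin cofactor (host cell factor), the signal was 685 and the values were 4.09, 3.61 and 5.92. In these 3 promoters replicate 3 gave the highest value, and each site overlapped a peak in every replicate.

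The PMCA promoter, of the plasma membrane calcium pump, had a signal of 682, with 3.54, 4.25 and 5.81 times the list median. Cadps, which acts in the release of dense-core vesicles, had a promoter signal of 584 with values of 2.44, 4.35 and 4.27, so that replicate 1 was well below the others. The same summit lay within 500 bp of a TSS of the neighbouring Dyrk3, so its gene is uncertain. CG31999, a gene known here only by its number, had 551 with values of 3.53, 3.97 and 3.46. The rest of the 15 strongest intervals lay away from promoters. They were a second site upstream of fd102C (708), an intronic site of zfh2 (594), a coding exon of the glutamate receptor gene mGluR (494), a site upstream of fuss of the SKI/SNO family (467) and an intron of apolpp (446), which encodes the lipid carrier apolipophorin. The apolpp summit also lay within the overlapping gene Zyx, so its gene is uncertain.

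By rank the chromosome stood lower at the top than the genome as a whole. The strongest member ranked 487, and the median rank of the members was 14499 of 30000. Member signals lay between 79.8 and 1143. Their median was 134, and that of all pooled peaks was 131. Thus 38 members, 14.8% (Wilson 95% interval 11.0% to 19.6%), were in the IDR list, against 16.8% of all pooled peaks, and the interval includes that background. The IDR list was identical to the strongest pooled peaks, so membership and signal are 1 measure here. The member just inside was PlexA (rank 5037, signal 292), a semaphorin receptor gene whose promoter peak was 0.82, 2.46 and 2.49 times the list median, low in replicate 1. It was preceded by a coding-exon peak of bt, the projectin gene of muscle (rank 5032). The members just outside were a promoter of Mitf, a regulator of lysosome genes (rank 5164, signal 287), and an intron of dati (rank 5293, signal 281).

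Within each replicate, the strongest peaks were taken as the top of its list to the length of the IDR list. Of the chromosome 4 peaks, 15.3%, 15.5% and 11.1% were among them in replicates 1, 2 and 3, against 16.8%, 16.8% and 16.9% on the large arms. The mean difference was -2.90 percentage points ± 2.53 (SD, n = 3), lower in 3 of 3 replicates (two-sided exact permutation test, p = 0.25, Benjamini-Hochberg adjusted p = 0.5). It was -1.44 points without replicate 3 and -1.83 points with 1 peak per interval. With 3 replicates the smallest exact p is 0.25, so none of the 6 tests of this kind could pass the threshold of 0.05. The median signal of the chromosome differed from that of the arms by a log2 ratio of -0.01 ± 0.07, with signs that differed between replicates (exact permutation p = 1, adjusted p = 1). Taken from mean instead of median signals it was -0.22, lower in 3 of 3 replicates (exact permutation p = 0.25).

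The density of chromosome 4 peaks per Mb varied between replicates more than that of any large arm. Replicates 1, 2 and 3 listed 307, 213 and 343 peaks there, or 227.7, 158.0 and 254.4 per Mb. Every replicate list held 30000 peaks, nearly all on the large arms, so the joint density of those arms was almost fixed by list length. The large arms had 224.0, 224.7 and 223.8 per Mb. Replicate 2 was thus the only replicate with a density below the arms. The mean log2 ratio was -0.10 ± 0.36 (exact permutation p = 1, adjusted p = 1), and it was -0.16, 0.10 and -0.24 without replicate 1, 2 and 3. In the pooled list the density was 190.6 per Mb (Poisson interval 168.0 to 215.4), against 224.4 on the arms, which lies above that interval. In the IDR list it was 28.2 per Mb (19.9 to 38.7), against 37.8, which lies inside. These intervals cover counting error only, and replicates 1 and 3 lay above the arms.

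Annotated transposable elements cover 24.8% of chromosome 4 in 566 annotated copies, against 5.74% of the large arms. Outside them, a view chosen after seeing the data, the density was 274.1, 191.3 and 297.8 per Mb in the 3 replicates, against 236.5, 237.2 and 236.0 on the arms (mean log2 ratio 0.08, exact permutation p = 0.75). Inside them it was 86.8, 56.9 and 122.8 per Mb, against 19.9, 20.5 and 22.2 on the arms. Replicate 2 was below replicates 1 and 3 in both kinds of sequence.

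**Figure D2:**
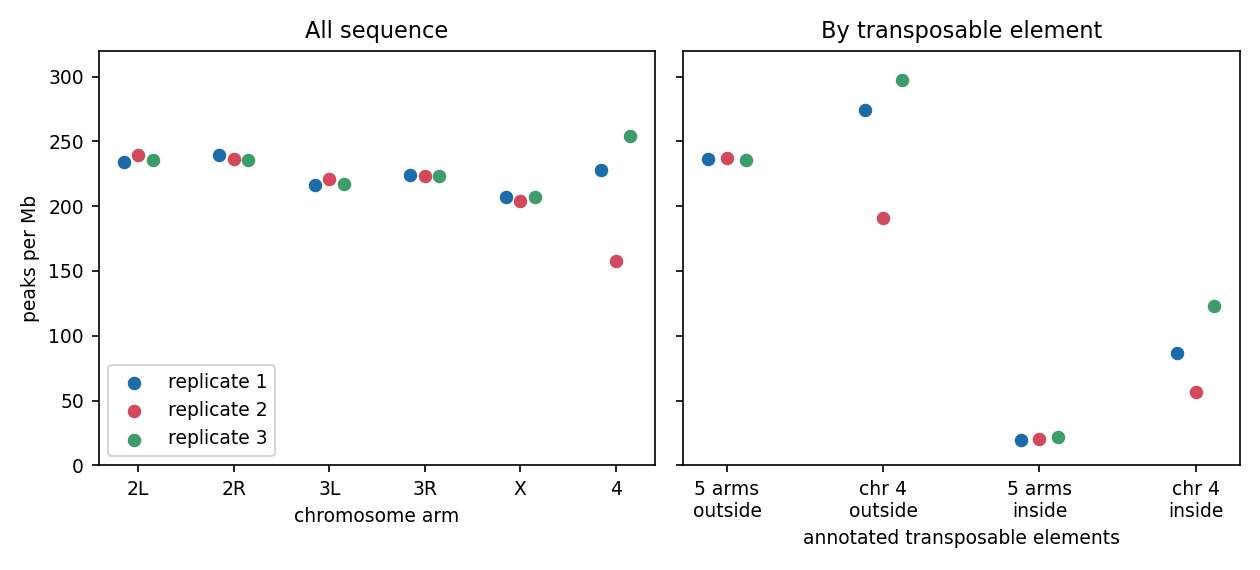
Peaks per Mb on each large arm and on chromosome 4 (left), and inside and outside annotated transposable elements (right), with 1 point for each replicate's list. The replicates lie close together on the large arms, whose joint density is nearly fixed because every list holds 30000 peaks. On chromosome 4 they spread from 158.0 to 254.4 per Mb.

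Summits inside a transposable element made up 22 of the 257 members, 8.56% (Wilson interval 5.72% to 12.6%), against 0.548% of the pooled peaks on the large arms. The share was 9.45%, 8.92% and 11.95% in the replicates, against 0.51%, 0.52% and 0.57% on the arms, higher in 3 of 3 (exact permutation p = 0.25). By family, 9 lay in 1360 alone (60 copies), a DNA transposon linked to heterochromatic silencing, and 5 in INE-1 alone (344 copies), the most abundant element of the chromosome. The copies of gypsy7 and rooA, both LTR retrotransposons with 2 annotated copies, held 2 summits each. None of the 38 IDR members lay in an element, which leaves a share of up to 9.18% (upper Wilson bound), while 22 of the other 219 did (10.05%). The handling of reads that map to several copies was not given in the sources used here, and its part in these counts was not tested.

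Sequence under the chromosome 4 peaks was richer in A and T than under the peaks of the large arms. GC content in the 201-base windows was 38.1%, 38.7% and 37.5% on chromosome 4 in replicates 1 to 3, and 44.1%, 44.5% and 43.8% on the arms. The difference was -6.02 percentage points ± 0.22 (SD, n = 3; exact permutation p = 0.25, adjusted p = 0.5), larger than the spread between replicates. The sequence of chromosome 4 as a whole is also AT-richer, with 34.8% GC against 42.2%. Soft-masked repeat bases filled 19.6%, 18.2% and 20.6% of the windows, against 14.4%, 14.6% and 15.02%, and 27.8% and 20.0% of the respective sequence.

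Around genes, promoters held a similar share of summits on chromosome 4 and on the large arms, introns a lower one and coding exons a higher one. Promoter summits numbered 71, or 27.6%, against 28.7% on the large arms, and promoters make up 8.55% of chromosome 4 sequence and 11.5% of the arms. Introns held 62 summits (24.1%), against 36.1% on the arms, where introns make up 42.2% and 39.3% of the respective sequence. Coding exons held 45 (17.5%), against 9.81% on the arms, where coding exons make up 18.9% and 13.9% of the respective sequence. Genes without a protein product held 18 (7.004%), against 2.64%, where they make up 3.30% and 2.14% of the respective sequence. Intergenic sequence held 47 (18.3%), against 18.9%, but makes up 18.8% of chromosome 4 and 27.9% of the arms. In the replicates the promoter share was 21.5%, 27.2% and 26.2%, against 27.3%, 27.0% and 29.7% (mean difference -3.03 percentage points ± 3.05, exact permutation p = 0.5, adjusted p = 0.75). That difference was -1.62 points without replicate 1, -4.65 points without replicate 2 and -1.31 points with promoters within 250 bp. The intron share was 31.3%, 23.5% and 28.3%, against 36.2%, 36.6% and 36.1%, lower in 3 of 3 replicates (mean difference -8.64 points ± 4.17, exact permutation p = 0.25). The coding exon share was 17.9%, 16.9% and 17.5%, against 11.2%, 10.1% and 9.21%, higher in 3 of 3 (mean difference 7.25 points ± 0.90, exact permutation p = 0.25).

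The IDR members, chosen by signal, lay closer to TSSs. Of 38, 20 (52.6%, Wilson interval 37.3% to 67.5%) had a promoter summit, against 42.6% of IDR peaks on the large arms. The interval includes that share. A further 8 were intergenic (21.1%, Wilson interval 11.1% to 36.3%), against 15.05% of IDR peaks on the arms. Introns and coding exons held 3 each (7.89%, Wilson interval 2.72% to 20.8%). On the arms, introns held 35.3% of IDR peaks and coding exons 1.92%, both outside that interval. The median distance of the IDR members from a TSS was 280.5 bp, against 2686 bp for the other members. Over the genome it was 856 bp for IDR peaks and 1949 bp for the other pooled peaks.

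**Figure D3:**
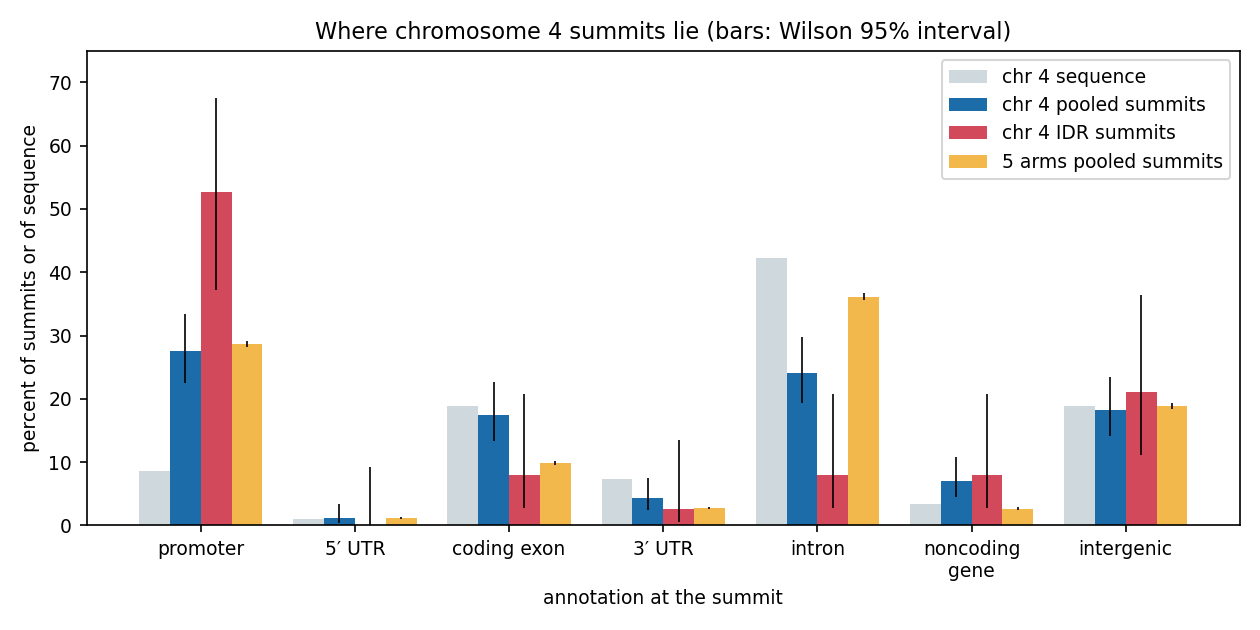
Percent of chromosome 4 sequence, of the 257 pooled and 38 IDR chromosome 4 summits, and of pooled summits on the 5 large arms in each annotation class, with Wilson 95% intervals. Promoters hold 8.55% of the sequence, 27.6% of pooled summits and 52.6% of IDR summits; introns hold 42.2% of the sequence and 24.1% of pooled summits.

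At the level of genes, 44 of the 80 protein-coding genes of chromosome 4 had a pooled promoter summit (55.0%, Wilson interval 44.1% to 65.4%), against 48.1% of all protein-coding genes. For the IDR list it was 18 (22.5%, 14.7% to 32.8%), against 15.1%. Both intervals include the background, and pooled summits were counted at any q-value. Among genes with a promoter peak the median signal was 248 on chromosome 4 and 191 over all genes.

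Transcription factor genes made up 7 of the 18 genes with an IDR promoter peak. Of 14 listed, 11 had a pooled promoter summit (78.6%, Wilson interval 52.4% to 92.4%, against 48.1% of all genes), with a median signal of 317. The 7 with an IDR one are 50% of the list (26.8% to 73.2%), against 15.1% of all genes. Besides ci and Hcf, the 7 were Sox102F, a Sox-family gene (437, with 1.92, 2.61 and 3.72 times the list median in replicates 1 to 3), zfh2 (429), pan (395), dati (317) and toy, the second Pax6 gene (310). At pan the replicate values were 3.45, 2.61 and 2.33, and at toy 3.28, 1.17 and 2.94, so that toy rested mainly on replicates 1 and 3.

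Below the IDR list, the promoters of Mitf (287), of sv, a Pax2 gene of sense organs (267), and of ey (240) had weaker peaks. This ey peak was 0.88, 1.75 and 1.46 times the median in replicates 1 to 3, and so below the median in replicate 1. A second ey promoter peak, 54 bp downstream of another TSS, had a signal of 186. It was 1.17 and 2.28 times the median in replicates 1 and 3, with no match in replicate 2. The weakest was onecut, a neuronal homeodomain gene, with a peak of signal 103 matched only in replicate 2 (0.80 times the median). Its other promoter peak, of 100.04, was matched in replicates 2 and 3. The −log10 q-values of these peaks were 1.16 and 1.11. The promoters of fd102C, NfI and pho, the last a DNA-binding Polycomb group factor, had no pooled summit. Each of these 3 had a weak peak in replicate 3 only, at 0.79, 1.25 and 1.18 times the median.

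Summits also gathered in the surroundings of these factors. The TSS nearest to 114 of the 257 members (44.4%, Wilson interval 38.4% to 50.5%) belonged to 1 of the 14 factors, and the sequence nearest to those TSSs is 26.2% of the chromosome. In the replicate lists the share was 45.0%, 42.7% and 37.3%. Of the IDR members it was 19 of 38, and of the 10 strongest peaks 8. The genes with most summits nearest were dati (19), zfh2 (17), Sox102F (16) and Asator (12), of which the first 3 are listed factors. The list was chosen with earlier results known, so these shares describe the chromosome and carry no test.

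Of 9 genes of signalling and axon guidance, 2 had a pooled promoter summit (22.2%, Wilson interval 6.32% to 54.7%), and that interval includes the 48.1% of all genes. Of the 9, only the semaphorin receptors PlexA (292) and PlexB (256) had one, PlexB with 1.31, 1.95 and 1.77 times the list median. Neither Actbeta, an activin ligand, nor Crk, an adaptor, nor the receptor Eph, nor its ligand Ephrin had a pooled promoter summit. The 2 ligands of the TGF-beta family myo and mav differed between the replicates. In replicate 1 the mav promoter reached 3.68 times the list median, in replicate 3 it reached 1.40, and in replicate 2 and in the pool no peak was listed. At myo the values were 2.64 in replicate 1 and 1.75 in replicate 3, again with none in replicate 2 or the pool. The Wnt cofactor gene lgs had no pooled promoter summit, but its TSS was the nearest to an IDR member 15418 bp downstream, with a signal of 422.

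Of 10 genes of synapse and ion handling, 7 had a pooled promoter summit and 2, PMCA and Cadps, an IDR one. The share of 7 in 10 has an interval of 39.7% to 89.2%, which includes the 48.1% of all genes. The other 5 were weaker, between mGluR at 185 and CaMKII, a calcium-dependent kinase, at 153. The pooled CaMKII peak was matched by overlap in 0 replicates. Each replicate nonetheless listed a peak within 500 bp of a CaMKII TSS, at 0.76, 1.00 and 0.72 times the list median. Cals, the calsyntenin gene, was matched only in replicate 3, and unc-13, of vesicle priming, only in replicate 2. The transporter genes Gat and Zip102B had no promoter peak in any list.

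Of 10 housekeeping genes, 6 had a pooled promoter summit (interval 31.3% to 83.2%, which includes the 48.1%) and 2 an IDR one. The highest were Tdg, a DNA repair glycosylase listed under its older name Thd1 (394, with 3.08, 2.60 and 2.85 times the median, at a summit shared with the promoter of Pur-alpha), and gw, which acts in microRNA silencing (344, with 2.37, 1.43 and 2.35). The ribosomal protein gene RpS3A had 223, and eIF4G1, a translation initiation factor, had none in any list. Of 4 cytoskeleton and muscle genes only Asator, a kinase that binds spindle-matrix proteins, had one (435, with 4.42, 2.31 and 3.05). The long gene bt had 9 summits within its body of 52075 bp, or 17.3 per 100 kb. That is slightly below the pooled density of the whole chromosome, 190.6 per Mb.

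**Figure D4:**
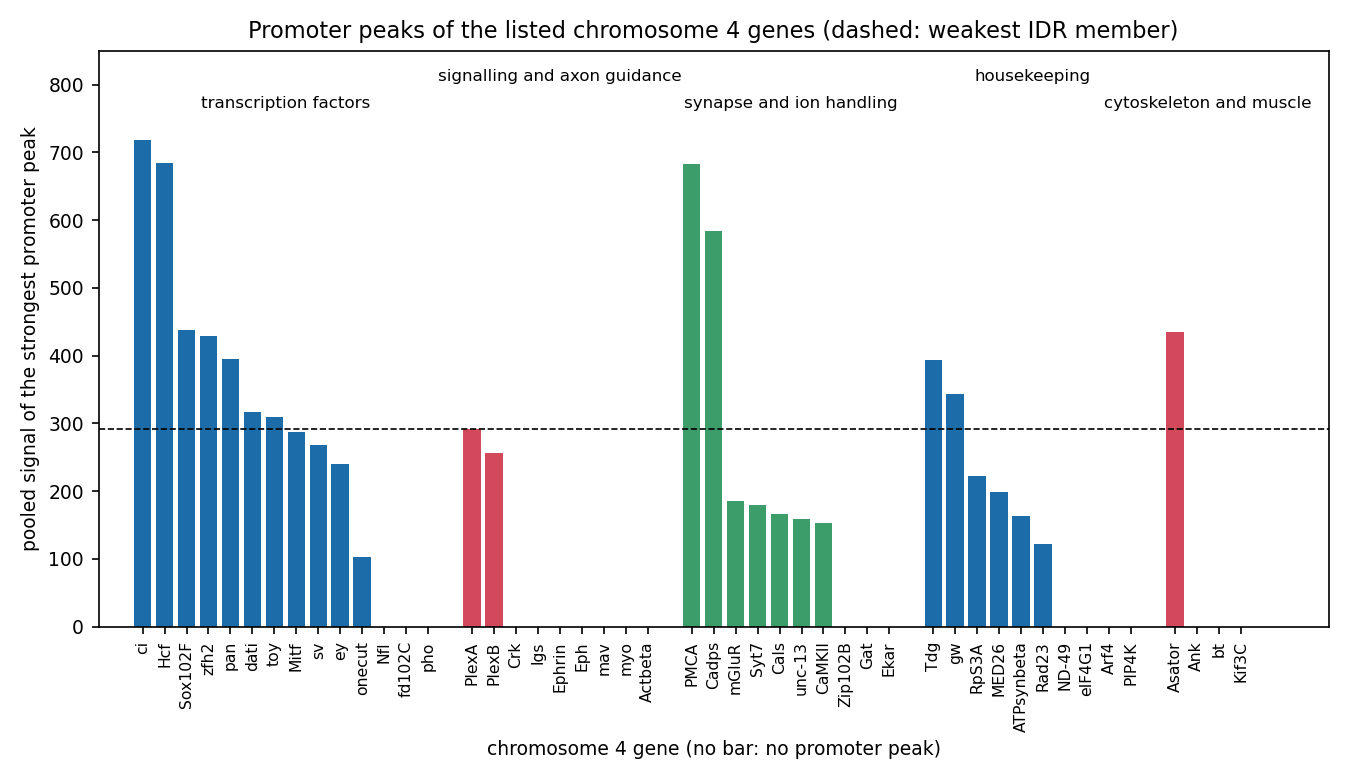
Pooled signal of the strongest promoter peak for each listed chromosome 4 gene, in 5 lists, with no bar where no pooled summit lay within 500 bp of a TSS. The dashed line is the weakest IDR member (signal 292); 7 of 14 transcription factor genes are above it, and 1 of 9 signalling genes reaches it.

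Along the chromosome, the first summit lay at position 42582 and the last at 1256165 of 1348131. In bins of 100 kb the counts were highest, at 33, in the fifth, the ninth and the tenth bin, which hold Asator with the upstream flank of zfh2, Sox102F with fd102C, and fuss with the start of toy. The last bin, of which 95.4% is transposable elements, held 0. No summit lay in the last 91966 bp. The largest gap between 2 summits was 60599 bp, from 70557 to 131156, across most of pan and all of Ank, the ankyrin gene. The next was 51323 bp, from 609043 to 660366, and holds Eph, mav, Gat and Ekar.

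The share of peaks listed in all 3 replicates was close to that of the genome, but single replicates differed. A peak of the same place, overlapping by at least 50% of either peak, was listed in all 3 replicates for 124 members (48.2%, Wilson interval 42.2% to 54.3%), against 51.1% of all pooled peaks. It was listed in 2 replicates for 86, in 1 for 41 and in 0 for 6. By replicate, 184, 183 and 218 of the 257 members were matched in replicates 1, 2 and 3. Of all 30000 pooled peaks it was 20922, 24280 and 23455, so members were matched less often than the pool in replicate 2 and more often in replicate 3. All 38 IDR members were matched in all 3, but that list was made from these replicate lists. In the other direction, 126, 42 and 107 chromosome 4 peaks of replicates 1, 2 and 3 had no counterpart in the pool, and the strongest of them ranked 1852 in replicate 1.

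The 6 motifs were rare under the members. Zelda's heptamer CAGGTAG, bound by the activator of the early zygotic genome, was in 3 of 257 windows (1.17%), against 2.68% of all pooled windows of the same length, and GAGAGAG of GAGA factor in 6 (2.33%), against 5.87%. TATCGATA of DREF, a factor of housekeeping promoters, was in 7 (2.72%), against 1.5%, and GGTCACAC, part of core promoter Motif 1, in 2 (0.778%), against 1.36%. The E-box CACGTG was in 7 (2.72%), against 3.16%, and CACACACA in 11 (4.28%), against 8.55%. Matches may overlap each other and are only descriptions of the letters. In the 38 IDR windows DREF matches numbered 3 (at Hcf, Taf3 and PlexA), or 7.89% (Wilson interval 2.72% to 20.8%), against 2.08% of all IDR windows. GAGA factor matches numbered 0 (upper Wilson bound 9.18%), against 11.0%. Zelda, Motif 1 and E-box matches numbered 1 each (2.63%, Wilson interval 0.466% to 13.5%), against 5.94%, 2.02% and 3.25%. CACACACA matches numbered 5 (13.2%, Wilson interval 5.75% to 27.3%), against 13.8%. For Zelda, Motif 1, the E-box and CACACACA the interval includes the share of all IDR windows.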

How the data were processed

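The authors deposited 5 peak lists on dm6, and the members were taken from the pooled one. In each, the deposited signal is a value of unstated scale, the deposited −log10 q-value measures confidence, and a further deposited column (other) gives the summit offset. Per the text files deposited with them, replicate lists came from each replicate's alignment and a shared control, the pool from all 3, and the IDR list from those lists. The caller and aligner were not given in the sources used here. Read depth is unknown, so Wilson and Poisson intervals cover counting error over peaks only. They treat overlapping peaks as independent, so they may be too narrow.

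Gene models were Ensembl release 115, and sequence and synonyms RefSeq Release 6. Python 3.11.15, pandas 2.3.3 and scipy 1.17.1 computed nearest TSS, overlap, sequence content and 6 two-sided exact sign-flip permutation tests of chromosome 4 against the large arms within replicates, adjusted by Benjamini-Hochberg. Steps were tested on simulated data. Genes named were those nearest the 15 strongest intervals, those of 5 lists, and those at the IDR limit. The genes 4E-T, Dyrk3, Pur-alpha, Zyx and the noncoding genes were named after their values were seen. The members and lists were chosen with earlier results of these data known.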

Additional observations from a re-analysis of the deposited data

How the results depend on the processing

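Of 56 alternative values, 41 kept their direction and side of the threshold or stayed within the spread set for them, 11 moved beyond it and 4 changed sign. The log2 density ratio of chromosome 4 to the large arms was -0.24 to 0.10 with a replicate left out, above 0 without replicate 2, and 0.0794 outside transposable elements, an alternative added after seeing the data. The log2 signal ratio was 0.00908 with 1 peak per interval and -0.0281 to 0.0314 with a replicate left out, and -0.225 with mean signals. The share of members matched in all replicates was 54.1% to 62.6% with a replicate left out, 56.4% with any overlap, 31.1% with summits within 100 bp and 16.3% among the strongest peaks of each list. With a stricter limit, the strongest 8.41% of all pooled peaks, 5.06% of members (Wilson interval 2.98% to 8.46%) and 7 promoter genes were left. Motif shares fell with windows of 50 bp to either side, to 0.389% for Zelda. With 3 replicates no test could pass the threshold, and read depth is unknown.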

Other observations

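Of 34 noncoding genes and pseudogenes on chromosome 4, counted without mature microRNA entries nested in their hairpins, 16 had a pooled promoter summit (47.1%, Wilson interval 31.5% to 63.3%). Over chromosome 4 and the 5 large arms it was 30.8% of 3738. The antisense gene asRNA:CR43957, which overlaps the start of ci and reaches upstream of it, held 7 summits. Its promoter signal of 718 was that of the ci promoter summit described above, which lies just outside the antisense gene. Other noncoding promoters also shared a summit with a coding gene, such as lncRNA:CR43958 with Tdg (394). The gene of the translational repressor partner 4E-T had 9 summits nearest to its TSS, none of them in the IDR list. Chromosome 4 peaks of replicates 1, 2 and 3 that had no counterpart in the pool lay in transposable elements in 13.5%, 9.52% and 16.8% of cases, against 6.63%, 8.77% and 9.75% of those with one.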
